A study of Mus musculus with 12 samples.

Results

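The genes described here encode the enzymes that place and remove N6-methyladenosine (m6A), a methyl mark on adenosines inside mRNA. They are the core methyltransferase genes Mettl3 and Mettl14, the 6 regulators of the writer complex Wtap, Virma, Zc3h13, Rbm15, Rbm15b and Cbll1, and the eraser genes Fto and Alkbh5. These 10 genes were taken by name from the 27013 rows of the input RNA table, from the m6A peak list of WT cells and from the YTHDF2 peak list. All 10 were found in the table, and Virma stood in the YTHDF2 list under its older symbol 1110037F02Rik.

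The cells were M1-type macrophages grown from bone marrow of Ythdf2 cKO and WT mice, both on the C57BL/6 strain. Every group had received M-CSF at 20 ng/ml for 7 days, then LPS at 100 ng/ml and interferon gamma at 20 ng/ml for 24 hours, so no unstimulated cells were compared. The 12 libraries form 6 groups of 2, namely m6A immunoprecipitation from cKO and from WT cells, its input from cKO and from WT cells, and YTHDF2 immunoprecipitation and its input from WT cells only. The labels name no Cre driver for the conditional knockout and do not say whether replicates came from separate mice or cultures, so p-values may measure technical spread alone. Peaks of the cKO m6A libraries were not used here.

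The writers act in the cell nucleus. METTL3 is the catalytic subunit and METTL14 its partner that holds the RNA, while WTAP anchors the pair in nuclear speckles, VIRMA and ZC3H13 hold the regulatory part together, and RBM15 and RBM15B bring it to target RNAs. CBLL1, also called HAKAI, is a RING-type ubiquitin ligase that sits in the same complex. FTO and ALKBH5 are iron-dependent dioxygenases that take the methyl group off again, and YTHDF2 is a cytoplasmic reader that sends marked mRNA to decay.

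Markers of the labelled cell type were present. All 8 macrophage markers were tested, with mean normalized counts between 2991 (Mertk) and 204979 (Lyz2) in the authors' deposited table, and Nos2, the nitric oxide synthase of M1 cells, stood at 31637; Il12b, at 19.6, was not tested. Summed mean counts in the authors' deposited table were 251 over the 5 T and NK cell markers found there, 60.2 over 6 dendritic cell markers, 57.2 over 5 erythroid markers and 1518 over 7 fibroblast markers. They were 9169 over 8 neutrophil markers, 8496 of it Csf3r, and 3815 over 6 B cell markers, 3745 of it Blnk, in the authors' deposited table, while Ly6g, which defines neutrophils, stood at 0.772. The deposited table holds no value per library, and the lowest counts in it, as single reads would give them, place the size factors of its 4 libraries between 0.884 and 1.28.

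None of the 10 writer and eraser genes passed the test between the genotypes. In the authors' deposited table, whose Wald test was adjusted over 10778 tested genes, 0 members had an adjusted p under 0.05 and 0 had an unadjusted p under 0.05. Among all tested genes 2.32% passed the adjusted threshold, and 1077 genes, 9.99%, had an unadjusted p under 0.05. The lowest adjusted p of a member was that of Alkbh5, at 0.63. The passing genes lay 190 on the positive and 60 on the negative side, or 146 and 75 after centring on the 25% of genes with the most reads.

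The table does not say which genotype is the numerator. Ythdf2, the targeted gene, was listed at 1.10 ± 0.16 (log2 fold change and SE, adjusted p 2.1e-09) in the authors' deposited table, so a positive value below means the same sign as Ythdf2 and a negative value the opposite sign. No value per genotype can be given. Markers of the labelled cells moved to both sides: of the 8 macrophage markers, Lyz2, the lysozyme of myeloid cells, was called at −1.49 ± 0.33 (adjusted p 0.0013), the integrin Itgam at −0.55 ± 0.11 (adjusted p 0.00014) and the lysosomal Cd68 at 0.40 ± 0.11 (adjusted p 0.022), all in the authors' deposited table. All 8 tested M1 markers had positive values, with a median of 0.25. Of these, the interferon-induced chemokines Cxcl9 and Cxcl10 were called, at 0.62 ± 0.15 and 0.55 ± 0.13 in the authors' deposited table. From the lists of other cell types, the collagen gene Col1a1 alone was called in the authors' deposited table, with a value of 0.56 ± 0.17 and an adjusted p of 0.049. The part of these and of the other cell types' markers in the members' values was not tested.

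Both core methyltransferase genes had values below 0. In the authors' deposited table Mettl3 was at −0.15 ± 0.18 (SE, log2 fold change) with a mean normalized count of 466. Mettl14 was at −0.09 ± 0.20, with a mean normalized count of 342, in the authors' deposited table. Neither differed from 0 beyond its error, and the 95% interval of Mettl3, the wider on the negative side, ran from −0.51 to 0.21.

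The 6 regulators of the writer complex all lay above 0, none past the threshold. Rbm15 was highest among them at 0.22 ± 0.17 in the authors' deposited table, and Rbm15b, its paralog, followed at 0.14 ± 0.18. Cbll1 was at 0.13 ± 0.21, Wtap at 0.07 ± 0.12, Virma at 0.06 ± 0.13 and Zc3h13 at 0.04 ± 0.13, all in the authors' deposited table. The largest Wald statistic among them was 1.26, that of Rbm15. Wtap, Virma and Zc3h13, at mean normalized counts of 2323, 1894 and 1694, had the smallest errors of the 6.

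Neither eraser passed the test, and their 95% intervals overlapped. Alkbh5 was at 0.22 ± 0.13 in the authors' deposited table, with a mean normalized count of 4985, and its 95% interval ran from −0.03 to 0.48. Fto was at −0.03 ± 0.15, with a mean normalized count of 819, in the authors' deposited table. The difference between the erasers was not tested, since that needs values per library.

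As a group, 7 of the 10 genes had a positive value and the median log2 fold change was 0.06, from −0.15 for Mettl3 to 0.22 for Alkbh5 in the authors' deposited table. Over all tested genes 48.7% were positive and the median was −0.01. All 10 intervals contained 0 and shared the range from −0.03 to 0.21, so the order of the members is not resolved. Counts per transcript length were not available, so the members' RNA levels are not compared with each other.

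The precision sets what these values can show. The largest p-value that still passed the adjusted threshold corresponds to a Wald statistic of 3.25 in size. With the deposited standard errors, a call would have needed a change of 1.32-fold for Wtap, 1.33-fold for Virma and 1.34-fold for Zc3h13 and Alkbh5. It would have needed 1.41-fold for Fto, 1.48-fold for Rbm15, 1.49-fold for Rbm15b, 1.51-fold for Mettl3 and 1.59-fold for Mettl14 and Cbll1. The bounds of the 10 intervals lay between 0.704-fold and 1.47-fold. Changes below the sizes just given would not have been called at this threshold.

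**Figure D1:**
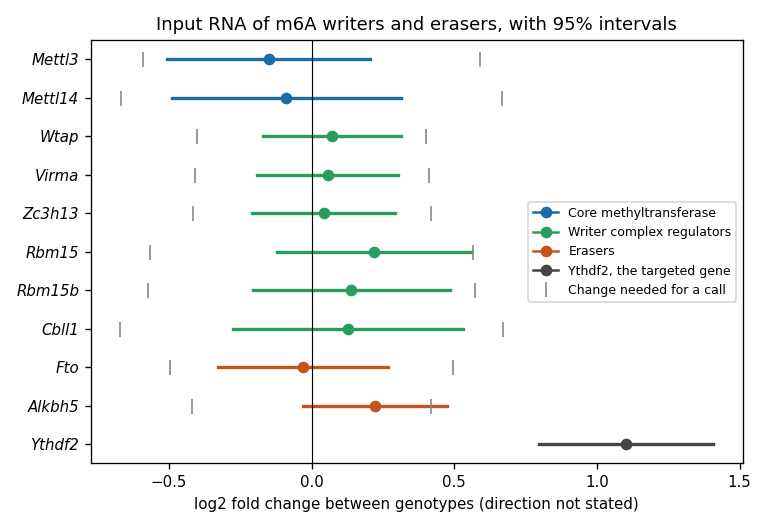
Log2 fold change between the genotypes (horizontal axis, direction not stated) for each writer and eraser gene and for Ythdf2, from the authors' deposited table. Points are the deposited values, bars their 95% intervals and grey ticks the size needed for an adjusted p under 0.05; the bars of all 10 genes cross 0, while Ythdf2 lies at 1.10.

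**Figure D2:**
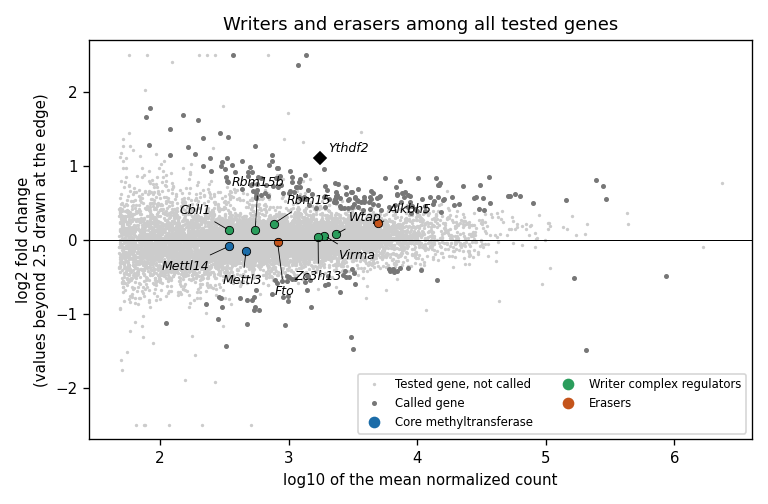
Log2 fold change (vertical axis) against the log10 mean normalized count (horizontal axis) for the 10778 tested genes of the authors' deposited table, with called genes in dark grey. The 10 writers and erasers lie between −0.15 and 0.22, inside the band of genes that were not called.

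The m6A list of WT macrophages gave marks on 7 of the 10 genes, against 45.4% of all tested genes. Neither Mettl3 nor Mettl14 had a listed peak, all 6 regulators had at least 1, and of the erasers Alkbh5 had peaks and Fto had none. Genes with more reads carried peaks more often: among tested genes in 10 equal bins by mean count, 39.3% had an m6A peak in the bin of Mettl3, Mettl14 and Cbll1. The share was 52.0% in the bin of Fto and Rbm15, 50.7% in that of Rbm15b, 65.7% in that of Wtap, Virma and Zc3h13, and 68.5% in that of Alkbh5. The list gives no level or p per peak and is a single list for WT, so these counts have no replicate spread. The median log2 fold change in the authors' deposited table was 0.13 over the 7 genes with an m6A peak and −0.09 over the 3 without, and no test was made over genes.

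The list named as YTHDF2 RNA immunoprecipitation gave peaks on 9 of the 10 genes, Cbll1 being the exception, against 64.5% of all tested genes. That share was 59.0% in the bin of Mettl3, Mettl14 and Cbll1, and 85.3% in that of Wtap, Virma and Zc3h13. It was 71.1% in the bin of Rbm15b, 75.9% in that of Fto and Rbm15, and 89.3% in that of Alkbh5. Both kinds of peak were listed for 6 of the 10 genes, against 35.9% of tested genes. The 35.9% was not split by mean count, so it does not allow for the members' read levels. Peaks in this list bear names that begin with m6a_peak, and which libraries they were called from was not tested. By position, 23.2% of its 17843 peaks overlapped an m6A peak.

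**Figure D3:**
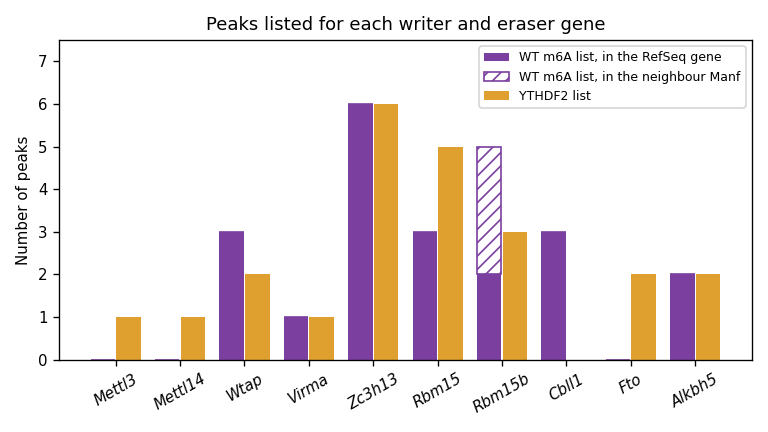
Number of peaks (vertical axis) listed for each writer and eraser gene in the WT m6A list (purple) and in the YTHDF2 list (orange). The hatched part is the 3 m6A peaks that carry the Rbm15b symbol but lie in the neighbouring gene Manf; Zc3h13 has 6 peaks in each list.

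The 23 YTHDF2-list peaks of these genes ranged in fold enrichment, the authors' value at the summit, from 1.84 to 6.12. Their median was 3.19, and that of the whole list 3.01. By the features listed for the member itself, summits fell in coding sequence in 12 peaks, in a 3′ UTR in 4, in an intron in 4 and outside those features in 3. With the features of every gene listed for a peak, of which the 3′ UTR was taken first, 11 lay in coding sequence, 6 in a 3′ UTR, 4 in an intron and 2 in no listed feature. By that rule 52.4% of the members' summits that fell in a feature lay in coding sequence and 28.6% in a 3′ UTR, against 35.7% and 39.2% in the whole list. Zc3h13 held 6 of the 23 peaks and Rbm15 held 5, so the members' shares lean on few genes, and the difference was not tested.

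**Figure D4:**
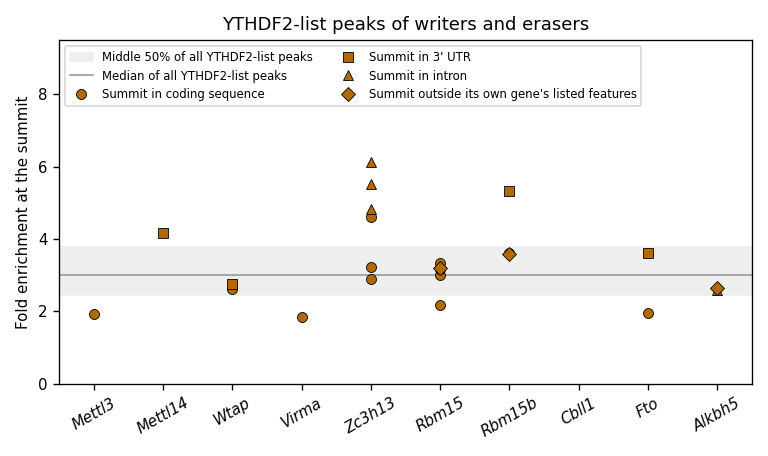
Fold enrichment at the summit (vertical axis, the authors' values) of each YTHDF2-list peak of the writers and erasers, with symbols for the feature of its own gene that the summit lies in and the middle 50% of the whole list in grey (2.46 to 3.78). The highest points are those of Zc3h13, at 6.12 and 5.51, and Cbll1 has none.

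Zc3h13, a large zinc finger protein of the writer complex (chromosome 14, 75284306 to 75344433, mm10 coordinates as in the RefSeq table), carried the most peaks of both kinds. It had 6 m6A peaks, a number that 2.48% of genes in the m6A list reached or passed. They covered 75309034 to 75309654, 75315933 to 75321675, 75321826 to 75323469, 75323845 to 75330166, 75330392 to 75330541 and 75331192 to 75337410, where the longer spans cross introns. The gene also had 6 YTHDF2-list peaks, which 7.38% of genes in that list reached or passed. Their fold enrichment along the gene was 3.24, 2.90, 4.62, 5.51, 6.12 and 4.82, so the 4 nearest the 3′ end of the gene were the stronger ones, and the highest exceeded 97.4% of the list. The 3 most 3′ summits were assigned to introns. They lay 16, 4 and 4 bases from the nearest exon part listed for the same peak. In the whole list 45.9% of 4075 intron summits lay within 20 bases of an exon part listed for the same peak, or 59.2% of the 3163 that have such a part listed.

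Wtap (chromosome 17, 12966799 to 12992543) had 3 m6A peaks. One spanned 12967421 to 12969498 at the 3′ end of the gene, and the other two, 12974574 to 12975023 and 12975124 to 12981795, lay in its middle. Its YTHDF2-list peaks were both at the 3′ end. The peak at 12967537 to 12967989, in the coding part of the final listed exon, lay inside the first m6A span with a fold enrichment of 2.63. The peak at 12967050 to 12967257, in the 3′ UTR, had a fold enrichment of 2.75 and stood 163 bases away from the mark.

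Virma (chromosome 4, 11485958 to 11551143) had 1 peak of each kind, far apart on the genome. The m6A span reached from 11507060 to 11514037, in the 5′ part of the gene. The YTHDF2-list peak at 11545857 to 11546098 lay 31819 bases further along the gene. That distance is genomic and includes introns, so it is not the spacing on the spliced RNA. This YTHDF2-list peak was the weakest of the 23, at a fold enrichment of 1.84, within the lowest 3.49% of the list.

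Rbm15 (chromosome 3, 107305511 to 107334460) encodes an RNA-binding protein of the SPEN family and is read from the minus strand. Its 3 m6A peaks, at 107330251 to 107330525, 107330926 to 107331950 and 107332126 to 107332200, all overlapped the large coding exon, and each overlapped a YTHDF2-list peak. The 5 YTHDF2-list peaks had their summits between 3.23% and 28.2% of the way along the RefSeq gene. The most 3′ of them had its summit in coding sequence and a 3′ UTR among its listed features. In the direction of transcription their fold enrichment was 3.19, 3.18, 3.02, 2.17 and 3.35, and all except 2.17 were above the list's median of 3.01.

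The peak nearest the start of Rbm15, at 107333194 to 107333668, covered the whole RefSeq promoter window of the gene. Among the members' own peaks in the lists, it was the only peak that touched a matched window. Its summit at 107333524 lay 235 bases upstream of the start site of that window, still within the RefSeq gene, which other transcripts extend. The 250 bases before the start site are shown because a peak in RNA covers them. They are the minus strand of chr3:107333290-107333539 from the RefSeq promoter table (GRCm38.p6), read 5′ to 3′, with the 21 bases centred on the summit in capitals.
Rbm15 upstream window: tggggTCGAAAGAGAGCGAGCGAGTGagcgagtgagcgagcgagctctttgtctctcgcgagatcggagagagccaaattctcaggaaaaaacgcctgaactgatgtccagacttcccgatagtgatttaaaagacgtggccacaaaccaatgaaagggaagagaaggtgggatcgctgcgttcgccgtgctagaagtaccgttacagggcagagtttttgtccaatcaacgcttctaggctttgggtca
This window holds the letters GGAC, the core of the methylation motif, 0 times on the transcribed sense and 2 times on the opposite strand. Among 32851 promoter windows cut to the same length, 58.0% held GGAC in the sense direction and 59.5% on the opposite strand. RefSeq windows were matched for 8 of the 10 genes, all but Mettl14 and Virma.

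Rbm15b (chromosome 9, 106880928 to 106887075), the paralog of Rbm15, had 5 m6A peaks by symbol, which 4.98% of genes in the list reached or passed. By position, 2 lay in Rbm15b, a number that 47.3% of genes in the list reached or passed by symbol. They lay at 106884213 to 106884487 and 106884713 to 106885412, both inside a YTHDF2-list peak that spans 106882845 to 106886936 (fold enrichment 3.62). The other 3, at 106888938 to 106890051, 106890102 to 106890201 and 106891136 to 106891260, lay 1863 to 4061 bases beyond the RefSeq gene, within its neighbour Manf. Manf, which encodes a secreted protein of the endoplasmic reticulum stress response, had 0 m6A peaks under its own symbol, and was at −0.36 ± 0.12 (log2 fold change, adjusted p 0.097) in the authors' deposited table. The first of these 3 overlapped a YTHDF2-list peak named for Manf, at 106888892 to 106889370, by 433 bases.

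All 3 YTHDF2-list peaks of Rbm15b were listed under other genes as well, namely in the 3′ UTR of Dcaf1 (as Vprbp), which runs on the opposite strand, and in an intron of Manf. They had fold enrichments of 5.34, 3.59 and 3.62. By RefSeq positions, all 3 lay within Rbm15b and outside Dcaf1 and Manf, while the transcripts used in the list reach further. The list gives peaks no strand, so it does not separate Rbm15b from Dcaf1. Manf is listed on the same strand as Rbm15b, so a strand would not separate Rbm15b from Manf.

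Cbll1 (chromosome 12, 31484829 to 31500676) had 3 m6A peaks close together, at 31487204 to 31487778, 31487804 to 31487878 and 31487904 to 31487978, and 0 peaks in the YTHDF2 list. It was the 1 member marked by m6A without a listed YTHDF2 peak.

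Mettl3 (chromosome 14, 52294841 to 52308741), the catalytic subunit, showed the opposite arrangement, with no m6A peak and 1 YTHDF2-list peak at 52295051 to 52295250. This peak was weak, with a fold enrichment of 1.93 that placed it in the lowest 5.28% of the list. It lay where the 3′ ends of Mettl3 and Tox4 overlap on opposite strands and was also listed in the 3′ UTR of Tox4, so it cannot be given to one of them. Mettl14 (chromosome 3, 123368295 to 123385990) likewise had no m6A peak and 1 YTHDF2-list peak, at 123368647 to 123369323 in its 3′ UTR. That peak had a fold enrichment of 4.18, higher than 82.8% of the list, and was named for no other gene.

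The erasers differed in where their peaks lay. Fto (chromosome 8, 91313367 to 91668433) had no m6A peak, and its 2 YTHDF2-list peaks both fell near the 3′ end of a gene of 355067 bases. The first, at 91666215 to 91666459 across the end of the coding sequence, had a fold enrichment of 1.95, and the second, at 91667819 to 91668314 in the 3′ UTR, had 3.61.

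Alkbh5 (chromosome 11, 60537683 to 60558512) carried 1 mark near its start and another 80.3% of the way along the gene. An m6A peak of 50 bases at 60538446 to 60538495, with its middle 787 bases from the start of the RefSeq gene, lay inside a YTHDF2-list peak at 60537895 to 60538934 (fold enrichment 2.60). The transcript named in the list places that stretch in an intron, and the list names 1 transcript for this gene. The second m6A peak, at 60554251 to 60554575, overlapped the listed coding exon and lay inside a YTHDF2-list peak at 60554137 to 60556997 (fold enrichment 2.66).

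**Figure D5:**
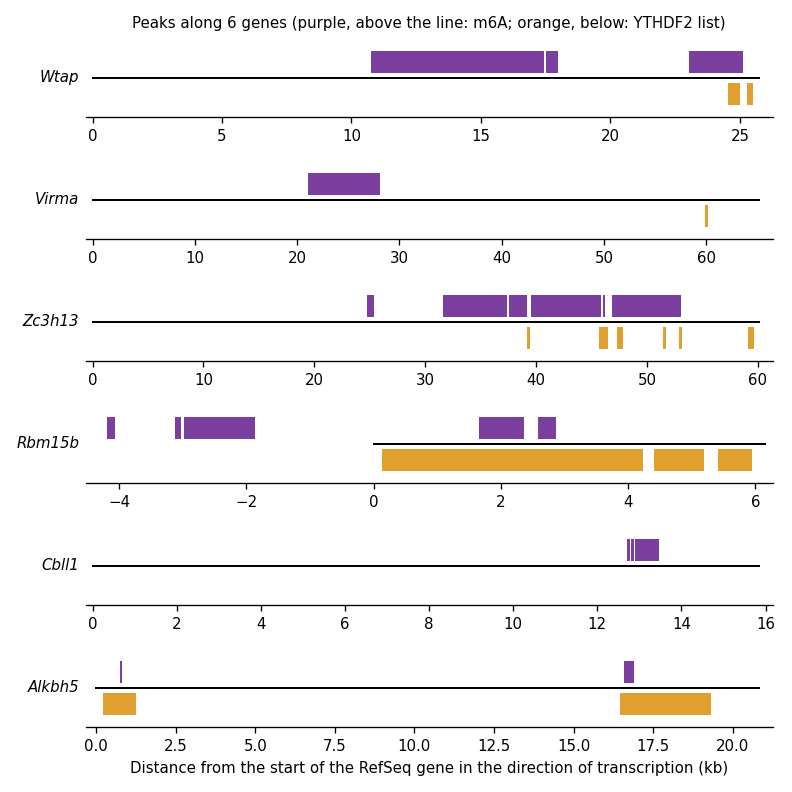
Peaks of the WT m6A list (purple, above the line) and the YTHDF2 list (orange, below) along 6 genes, by distance in kb from the start of the RefSeq gene, which the line spans. Peaks coincide in Alkbh5 and in the body of Rbm15b, lie 31819 genomic bases apart in Virma, and are of 1 kind in Cbll1. For Rbm15b the 3 m6A peaks left of the line lie in Manf.

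Of the 20 m6A peaks that lay in or within 1000 bp of their own gene, 11 (55%) overlapped a YTHDF2-list peak. The share was 49% of all 9345 m6A peaks placed in this way. Overlap was counted on whole genomic spans, introns included. The 23 m6A peaks listed for the members had a median width of 575 bases, against 325 in the whole m6A list. The part of peak width in these shares was not tested. The 11 belonged to 5 genes, namely Wtap, Zc3h13, Rbm15, Rbm15b and Alkbh5. The 9 that stood apart were the mark of Virma, the 3 of Cbll1, 2 of Wtap and the 3 most 5′ ones of Zc3h13, the last of them separated by 14 bases from a YTHDF2-list peak.

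The other genes of the pathway were read from 5 lists with 45 genes, of which 41 were tested. Ythdf2 was the 1 gene that passed, against the 2.32% of all tested genes. Among 11 tested readers, 3 had positive values and the median was −0.04. Igf2bp2, a reader known for stabilising its targets, was at 0.32 ± 0.15 in the authors' deposited table, and its adjusted p was 0.36. The splicing-linked reader Rbmx was at −0.14 ± 0.16 and the nuclear reader Ythdc1 at −0.09 ± 0.13 in the authors' deposited table.

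The list of other RNA methyltransferases and their partners had 1 positive value in 6 tested genes and a median of −0.07. Zcchc4, which methylates ribosomal RNA, was at 0.38 ± 0.14 in the authors' deposited table, and its adjusted p was 0.18. Trmt112, the activating partner of several methyltransferases, was at −0.51 ± 0.25 (adjusted p 0.45), and Mettl16, which marks U6 RNA, at −0.29 ± 0.20 (adjusted p 0.76), both in the authors' deposited table. None of these passed.

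Genes of the supply of S-adenosylmethionine, the methyl donor, had 4 positive values in 11 tested and a median of −0.04. Mtr, the methionine synthase, was at −0.48 ± 0.18 in the authors' deposited table, and its adjusted p was 0.20. Ahcy, which clears the by-product of methylation, was at −0.47 ± 0.27, and Amd1, which draws the donor into polyamine synthesis, at −0.33 ± 0.17, both in the authors' deposited table. Among nuclear partners, Nudt21, a subunit of the cleavage factor for polyadenylation, was at −0.37 ± 0.18 (adjusted p 0.41), the splicing factor Srsf3 at −0.26 ± 0.16 and the signalling factor Smad2 at 0.05 ± 0.14 in the authors' deposited table. That list had 4 positive values in 7 tested, with a median of 0.01. The other AlkB-family dioxygenases had a median of −0.06 over 6 tested genes, with Alkbh4 at 0.16 ± 0.23, Alkbh3 at 0.13 ± 0.18 and Alkbh6 at −0.16 ± 0.24 in the authors' deposited table.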

How the data were processed

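Input RNA, WT m6A peaks and YTHDF2 peaks were read from 3 deposited files, 0 of which hold values per library. The expression table carries DESeq2-style names per the file headers. The authors averaged normalized counts over libraries to give a signal per gene, and deposited a log2 fold change with its standard error, a Wald statistic (a score), a p-value and its adjusted form. The YTHDF2 list holds, as deposited, a fold enrichment ratio, −log10 q and a score. Per the submitters' processing notes, HISAT2, HOMER, ChIPseeker and mm10 were used, in roles not stated. No source used here names the peak caller of the YTHDF2 list.

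Symbols were joined directly or through RefSeq synonyms (GRCm38.p6). Repeated rows (3234 of 45541) were dropped, and positions are written 1-based. A gene was called when the deposited adjusted p was under 0.05. Peaks overlapped when they shared at least 1 bp. All 10 members are named. From the other lists, called genes and up to 3 more by Wald statistic are named. Members and lists were chosen with earlier results of these data known. The design of edgeR on counts did not apply, since no counts per library were in the files. Benjamini-Hochberg and centring steps (Python 3.11.15, scipy 1.17.1) were tested on simulated data. Alternatives covered the count filter, centring, the threshold, and peak limits.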

Additional observations from a re-analysis of the deposited data

How the results depend on the processing

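With no filter on low counts, a minimum mean count of 200, centring on all or on the most abundant 25% of genes, or an adjusted p under 0.10, 0 members and 1 other pathway gene, Ythdf2, passed, and every member kept its sign. Centring on the most abundant 25% moved Zc3h13 to 0.0037, Virma to 0.018, Wtap to 0.034 and Fto to −0.07 (log2), each by over 1.5 times but by less than its standard error. The lowest adjusted p of a member ran from 0.55 to 0.9996. Peaks of at least 100 bp left 19 of 23 m6A peaks on all 7 genes. A fold enrichment of at least 2, or a −log10 q of at least 5, left 20 of 23 YTHDF2-list peaks on 7 of 9 genes, without Mettl3 and Virma. Asking for 50% of the m6A peak left 8 of 11 overlaps. No paired analysis was possible because the deposited table holds no values per library, and for the same reason no replicate was left out. Total counts per library were not in the files used here; the estimated size factors differ by up to 1.45 times, and which library has which is unknown.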

Other observations

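Among the nuclear partners of the writer complex, Spen, a transcriptional repressor related to Rbm15, had 13 m6A peaks and 10 YTHDF2-list peaks, and Setd2, a histone methyltransferase, had 7 and 6. Spen was at 0.03 ± 0.12 and Setd2 at −0.00 ± 0.12 (log2 fold change and SE) in the authors' deposited table, neither past the threshold. The reader Prrc2a had 4 m6A peaks and 9 YTHDF2-list peaks, at −0.04 ± 0.11 in the authors' deposited table. All 3 were picked after seeing their values.

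Mat2a, which makes S-adenosylmethionine, was at 0.70 ± 1.93 in the authors' deposited table, with a mean normalized count of 171. That standard error is larger than 99.9% of those of tested genes, whose median was 0.167, so its change is not placed. It was also chosen after its value was seen.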
